A study of Homo sapiens with 9 samples.

Results

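Changes in RNA of 38 genes that encode Polycomb proteins, heterochromatin proteins, the MBD family and other methyl-DNA-binding proteins, and enzymes that set or remove histone methylation were examined in RKO cells after depletion of UHRF1, inhibition of histone deacetylases, or both. The 38 genes were taken by name from 36305 gene names on the array, and 64 probes carried one of these names. RKO is a colorectal cancer cell line. A control siRNA (siCONT) or one directed at UHRF1 (siUHRF1) was introduced for 72 h, and the cells then received ethanol (mock) or 300 nM trichostatin A (TSA), an inhibitor of histone deacetylases, for a further 24 h. The siRNA groups were thus mock siCONT and mock siUHRF1 (named without a suffix here) and the same with TSA, 4 groups of 2 arrays each. In both UHRF1-depleted groups, replicate 1 came from siUHRF1-1 and replicate 2 from siUHRF1-2, which are separate siRNAs. A single further array measured cells given 1 µM 5-aza-2'-deoxycytidine (5-aza-dC), an inhibitor of DNA methyltransferases, for 72 h with no siRNA. Knockdown was transient and in 1 cell line, and nothing in the labels says that arrays of a group came from separate cultures. The p-values thus measure the spread between these arrays. That spread is shared by all groups, includes the difference between the siRNAs to UHRF1, and may otherwise be technical.

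UHRF1 reads hemimethylated DNA and methylated histone H3 lysine 9 (H3K9), and brings the maintenance DNA methyltransferase to replicating DNA. The genes studied here act beside it in silencing. Polycomb repressive complex 2 (PRC2) methylates histone H3 lysine 27 (H3K27), and Polycomb repressive complex 1 (PRC1) binds that mark and ubiquitinates histone H2A. At heterochromatin, methyltransferases set H3K9 methylation, which HP1 proteins bind, and HELLS, a remodelling ATPase, is needed for normal DNA methylation.

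The signal was read in 1 colour on Agilent arrays, and each value below is a log2 signal relative to the 75th percentile of its own array, for the brightest probe of the gene. That percentile lay between 245 and 338 on the 8 siRNA arrays and was 822 on the 5-aza-dC array, whose slide and scan were not those of the others. The siRNA arrays shared 1 slide, with mock arrays in row 1, TSA arrays in row 2, siCONT in columns 1 and 2 and siUHRF1 in columns 3 and 4. Position on the slide and treatment thus cannot be told apart. UHRF1 itself was 2.69 and 2.69 in siCONT, 0.36 and 0.075 in siUHRF1, 2.87 and 2.86 in siCONT + TSA, and -0.34 and -0.62 in siUHRF1 + TSA, so every depleted array lay below every control array. Of 7 epithelial markers, KRT8, KRT18 and CDX2 were above background on all 9 arrays, KRT19 on 3, EPCAM on 2, and CDH1 and VIL1 on 0. Of the markers of other cell types, COL1A1 and CD68 were above background on all 9 arrays and PTPRC on 6. COL1A2 and PDGFRB were above it on 3, DCN on 2, CD3E on 1, and COL3A1 and PECAM1 on 0. All 38 genes were above background on all 9 arrays, and none was therefore lost to the filter on dim probes. A bulk signal cannot tell fewer cells of a type from less RNA per cell.

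**Figure D1:**
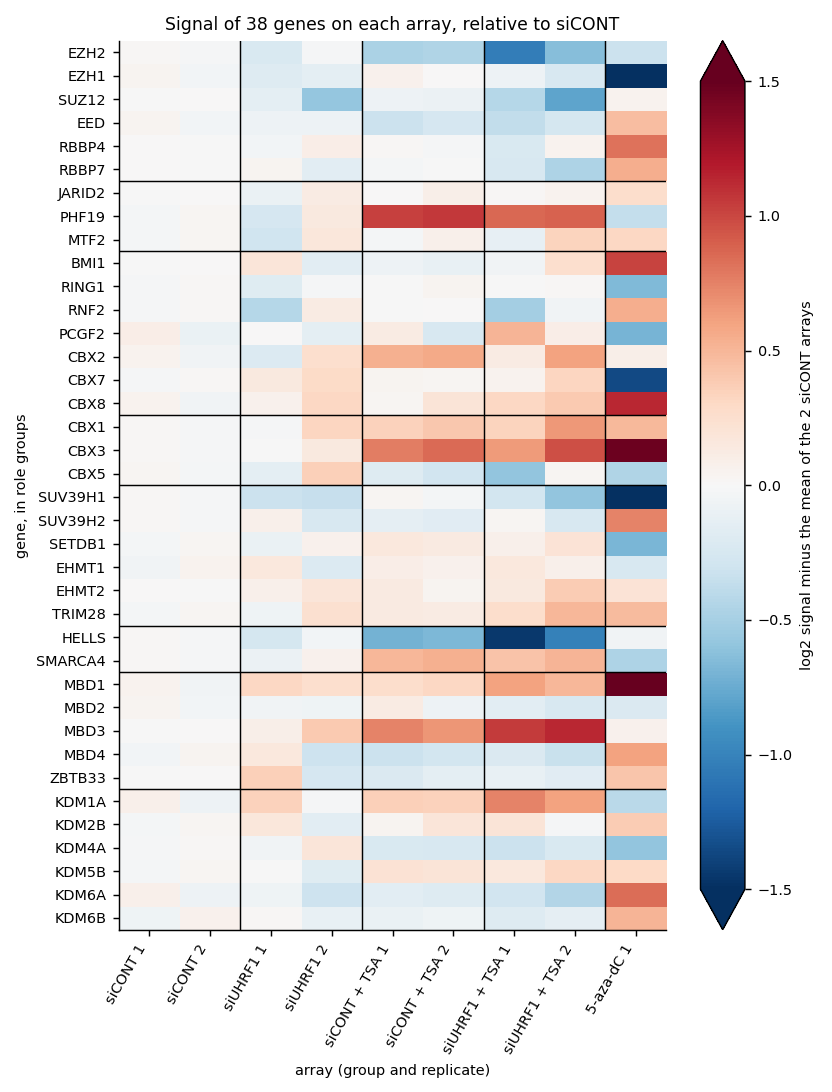
Log2 signal of the 38 genes (rows, in 8 role groups divided by lines, in the order PRC2 core, PRC2 accessory, PRC1, HP1, H3K9 methyltransferases with TRIM28, remodellers, MBD family with ZBTB33, and demethylases) on each of the 9 arrays (columns), minus the mean of the siCONT arrays. The colour scale ends at -1.5 and 1.5 and values beyond it take the end colour. HELLS and EZH2 were lower, and PHF19, CBX3, SMARCA4 and MBD3 higher, on all 4 TSA arrays than on both siCONT arrays.

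A gene was called higher or lower when its adjusted p from limma, corrected by the Benjamini-Hochberg method over all probes tested, was below 0.05. UHRF1 depletion alone moved none of the 38 genes past this threshold, with 2 genes at an unadjusted p below 0.05 (limma). Among all 17719 gene names tested, 0.643% were called in this comparison, and 1588 had an unadjusted p below 0.05 (limma). TSA alone raised 4 genes (PHF19, CBX3, SMARCA4 and MBD3) and lowered 1 (HELLS), against 10.9% of all gene names called, 7% higher and 3.85% lower. With both treatments, 6 genes were higher (PHF19, CBX3, SMARCA4, MBD1, MBD3 and KDM1A) and 3 were lower (EZH2, SUV39H1 and HELLS) than in siCONT. Those 9 of 38 genes are 23.7%, which is near the 24.2% of all gene names called in that comparison (16.1% higher and 8.08% lower). As a list these genes therefore moved about as often as any others, and the median log2 fold change over the 38 was 0.063, compared with 0.067 over all gene names. These 3 comparisons share the siCONT arrays. Cell type markers also moved with both treatments. The summed linear signal of the 7 epithelial markers, relative to the 75th percentile, was 49.95 to 50.4 in siCONT and 76.8 to 93.9 in siUHRF1 + TSA. KRT19 was above background on both arrays of the latter group and on neither siCONT array. EPCAM went the other way, above background on 1 siCONT array and on neither siUHRF1 + TSA array (log2 -3.3 and -6.3, against -4.2 and -4.5). CDH1 and VIL1 stayed below background, so the list did not rise as a whole. That of 5 fibroblast markers was 0.19 to 0.24 in siCONT, 0.25 to 0.45 in siUHRF1, 0.45 to 0.48 in siCONT + TSA and 0.76 to 1.09 in siUHRF1 + TSA, with 1 of 5 above background on both siCONT arrays and 4 of 5, including COL1A2 and PDGFRB, on both siUHRF1 + TSA arrays, while COL3A1 stayed below background. The 4 blood and endothelial markers summed to 3.20 to 3.43 in siCONT and 2.14 to 5.70 in siUHRF1 + TSA, which overlap. CD68 made up most of this sum, and KRT18 most of the epithelial one. On the log2 scale KRT18 was 5.42 and 5.45 in siCONT, and 6.38 and 6.11 in siUHRF1 + TSA. CDX2 was 1.46 and 1.41, and 1.68 and 1.55, in those groups. The part of these markers in the changes of the 38 genes was not tested.

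The effect of UHRF1 depletion in TSA-treated cells was also examined. Between siUHRF1 + TSA and siCONT + TSA, 0 of the 38 genes were called by limma, compared with 3.85% of all gene names. An unadjusted p below 0.05 (limma) was reached by 7 of the 38 and by 3174 of 17719 gene names. TSA in UHRF1-depleted cells called 6 genes, against 16.3% of all gene names, with PHF19, CBX3, SMARCA4 and MBD3 higher and EZH2 and HELLS lower. The effect of UHRF1 depletion with TSA was called different from that without TSA for 0 of the 38 genes and 0.389% of all gene names. At an unadjusted p below 0.05 (limma) it differed for 0 of the 38 and 884 of 17719 gene names. The largest such difference was that of PCGF2, 0.43 on the log2 scale with a 95% interval of -0.21 to 1.08, and the interval for HELLS ran from -0.94 to 0.17. The fit did not pair the UHRF1-depleted arrays by siRNA. Differences between the siRNAs therefore stayed in these intervals, and in the test of TSA in UHRF1-depleted cells, so few calls here do not show that an effect is absent.

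**Figure D2:**
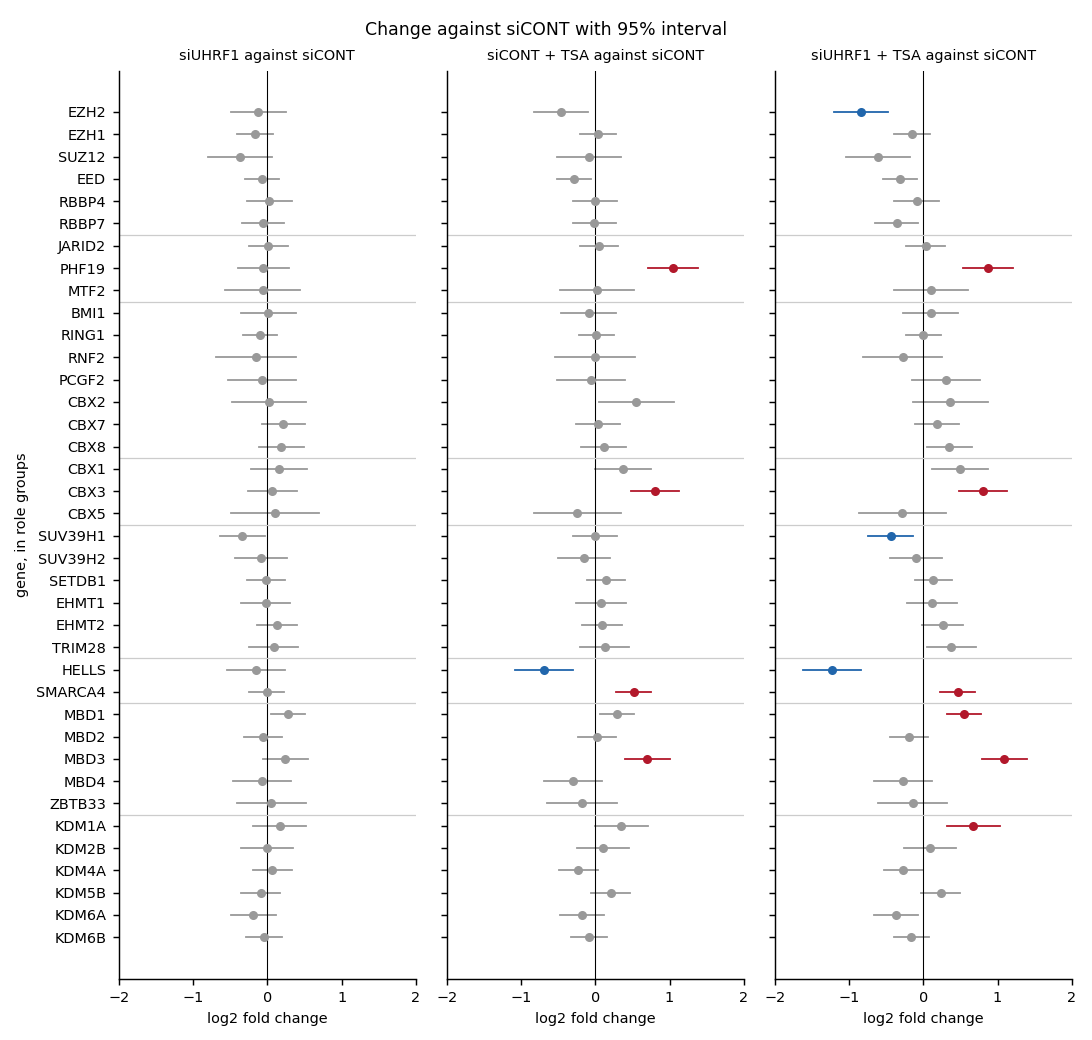
Log2 fold change against siCONT of the 38 genes (rows, in the same role groups) in siUHRF1, siCONT + TSA and siUHRF1 + TSA, with the 95% interval from limma as a line. Red points were called higher, blue points called lower and grey points not called; none is coloured in siUHRF1, 5 in siCONT + TSA and 9 in siUHRF1 + TSA.

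HELLS showed the largest fall of the 38 genes in the siRNA comparisons. Its signal was 0.69 and 0.66 in siCONT, 0.41 and 0.63 in siUHRF1, -0.031 and -0.0024 in siCONT + TSA, and -0.77 and -0.34 in siUHRF1 + TSA. All 4 TSA arrays lay below all 4 mock arrays, and the arrays with both treatments lay below those with TSA alone. HELLS fell by 0.69 on the log2 scale with TSA alone (standard error 0.16, adjusted p = 0.0468, limma) and by 1.23 with both treatments (standard error 0.16, adjusted p = 0.00474, limma). In siUHRF1 + TSA against siCONT + TSA its log2 fold change was -0.54 (95% interval -0.93 to -0.15, adjusted p = 0.161, limma), and with UHRF1 depletion alone it was -0.15 (adjusted p = 0.877, limma). The probe lies at chr10:96354481-96354540 of hg19, plus strand. A second HELLS probe gave log2 fold changes of -0.35 with TSA alone and -0.76 with both treatments, in the same direction but not called (adjusted p = 0.342 and 0.0517, limma).

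EZH2, the catalytic H3K27 methyltransferase of PRC2, was 3.39 and 3.36 in siCONT, 3.14 and 3.36 in siUHRF1, 2.90 and 2.92 in siCONT + TSA, and 2.34 and 2.73 in siUHRF1 + TSA. Here too all TSA arrays lay below all mock arrays. EZH2 fell by 0.84 with both treatments (standard error 0.15, adjusted p = 0.0126, limma) and by 0.72 when TSA was added to UHRF1-depleted cells (adjusted p = 0.03, limma). TSA alone gave -0.46 (95% interval -0.83 to -0.09, adjusted p = 0.107, limma), which did not pass the threshold. EZH2 is measured by 1 probe, at chr7:148504505-148504564 of hg19, minus strand.

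HELLS and EZH2 are expressed in proliferating cells, and HELLS belongs to the S phase gene list distributed with Seurat. The other genes of that list on the array, without HELLS and UHRF1, numbered 41. With TSA alone 15 of these 41 were lower and 0 higher, with a median log2 fold change of -0.57, and with both treatments 25 were lower and 1 higher, with a median of -0.72. Over all gene names 3.85% were lower and 7% higher with TSA alone, with a median of 0.083. The corresponding values for both treatments were 8.08% and 16.1%, with a median of 0.067. With UHRF1 depletion alone none of the 41 was called by limma, 1 had an unadjusted p below 0.05, and the median was -0.025. Their part in the changes of HELLS and EZH2 was not tested.

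The remaining PRC2 core genes were not called in any siRNA comparison. SUZ12 and EED encode the subunits that EZH2 needs for activity, and RBBP4 and RBBP7 encode histone-binding subunits. SUZ12 was 2.56 and 2.57 in siCONT, 2.41 and 1.99 in siUHRF1, 2.49 and 2.48 in siCONT + TSA, and 2.13 and 1.77 in siUHRF1 + TSA. The 4 depleted arrays lay below the 4 control arrays. Its log2 fold change was -0.36 with UHRF1 depletion alone (95% interval -0.80 to 0.07, adjusted p = 0.646, limma), the most negative of the 38 in that comparison, -0.53 with depletion under TSA (adjusted p = 0.202, limma) and -0.61 with both treatments (95% interval -1.05 to -0.18, adjusted p = 0.0543, limma). For EED the fold change with both treatments was -0.32 (adjusted p = 0.0577, limma), and for RBBP7 it was -0.36 (adjusted p = 0.0756, limma). EZH1, the second H3K27 methyltransferase, gave -0.16 (95% interval -0.40 to 0.08) and RBBP4 gave -0.089 (95% interval -0.39 to 0.21). By their brightest probes all 6 core genes had negative values with both treatments, of which only that of EZH2 passed the test. The intervals of EZH1 and RBBP4 spanned 0. Of 17719 gene names tested, 7629 were below 0 in that comparison and 24.2% were called. Whether the core genes move together was not tested. The probes of RBBP4 disagreed, with other probes at 0.38, -0.43 and -0.24 there, none of them called (limma).

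PHF19, an accessory subunit that brings PRC2 to methylated histone H3 lysine 36, showed the largest rise with TSA alone. Its signal was 4.06 and 4.12 in siCONT and 3.84 and 4.23 in siUHRF1, compared with 5.11 and 5.15 in siCONT + TSA and 4.95 and 4.97 in siUHRF1 + TSA. The TSA arrays all lay above the mock arrays. Both siUHRF1 + TSA arrays lay slightly below both siCONT + TSA arrays, a difference that was not called (log2 fold change -0.17, adjusted p = 0.588, limma). The rise with TSA alone was 1.04 on the log2 scale (2.06-fold, standard error 0.14, adjusted p = 0.0134, limma), and with both treatments it was 0.87 (adjusted p = 0.00866, limma). The probe lies at chr9:123631999-123632058 of hg19, minus strand, and a second probe gave 0.35 (adjusted p = 0.164, limma) and 0.63 (adjusted p = 0.0246, limma) in those comparisons. MTF2, a paralog with the same role, gave 0.022 with TSA alone (95% interval -0.48 to 0.52), and JARID2, another accessory subunit, gave 0.049 (95% interval -0.21 to 0.31).

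**Figure D3:**
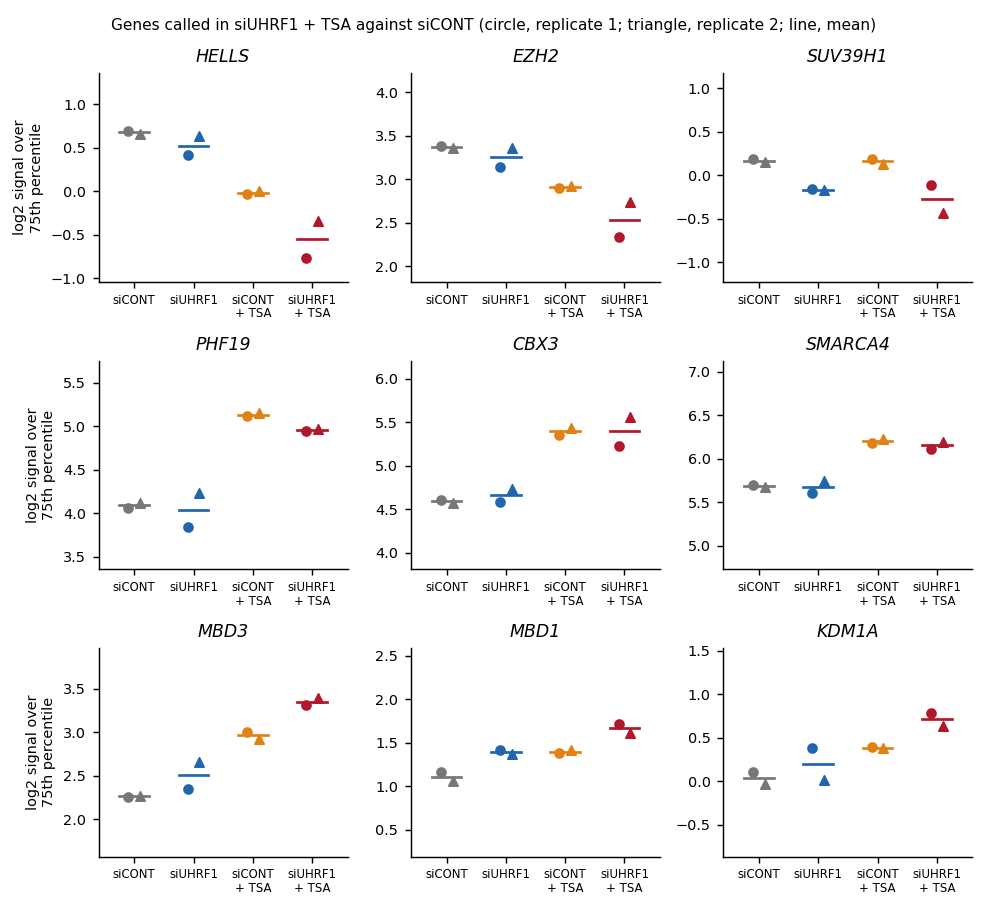
Log2 signal over the 75th percentile of the array, for the 9 genes called in siUHRF1 + TSA against siCONT, on each array of the 4 siRNA groups. Circles are replicate 1 (siUHRF1-1 in the depleted groups), triangles replicate 2 (siUHRF1-2) and lines the mean of 2 arrays; each panel spans the same range of 2.4 on the log2 scale. HELLS and EZH2 step down and PHF19, CBX3, SMARCA4 and MBD3 step up in both TSA groups, whereas SUV39H1 is lower in both siUHRF1 groups.

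None of the 7 PRC1 genes was called in a siRNA comparison. Of all gene names tested, 10.9% were called with TSA alone and 24.2% with both treatments. So few genes cannot set PRC1 apart from these shares. BMI1 and PCGF2 encode PCGF subunits, RING1 and RNF2 the ubiquitin ligases, and CBX2, CBX7 and CBX8 the chromodomain subunits that bind methylated H3K27. Their log2 fold changes ranged from -0.15 to 0.22 in siUHRF1, from -0.09 to 0.55 in siCONT + TSA and from -0.28 to 0.37 in siUHRF1 + TSA, each against siCONT. The value of 0.55 was that of CBX2, which was 3.11 and 3.01 in siCONT and 3.60 and 3.63 in siCONT + TSA (95% interval 0.05 to 1.05, adjusted p = 0.143, limma). The siCONT + TSA arrays of PCGF2, at -2.54 and -2.91, spanned both of its siCONT arrays, at -2.57 and -2.76.

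The HP1 proteins bind H3K9 methylation. CBX3, which encodes HP1 gamma, was 4.61 and 4.57 in siCONT, 4.58 and 4.73 in siUHRF1, 5.35 and 5.44 in siCONT + TSA, and 5.23 and 5.56 in siUHRF1 + TSA. All TSA arrays lay above all mock arrays. The log2 fold change of CBX3 was 0.80 with TSA alone (1.75-fold, standard error 0.13, adjusted p = 0.0209, limma) and 0.81 with both treatments (adjusted p = 0.00972, limma). CBX1 (HP1 beta) was 3.69 and 3.66 in siCONT, 3.66 and 4.0 in siUHRF1, 4.01 and 4.07 in siCONT + TSA, and 4.01 and 4.33 in siUHRF1 + TSA, with 0.50 for both treatments (95% interval 0.12 to 0.88, adjusted p = 0.0678, limma). CBX5 (HP1 alpha) was 0.94 and 0.88 in siCONT, 0.76 and 1.26 in siUHRF1, 0.71 and 0.62 in siCONT + TSA, and 0.32 and 0.94 in siUHRF1 + TSA. The siCONT + TSA arrays lay below the mock arrays, while the siUHRF1 + TSA arrays overlapped every other group. With both treatments its log2 fold change was -0.28 (95% interval -0.87 to 0.31). A second CBX5 probe gave 0.11 with TSA alone and -0.064 with both treatments. The CBX3 probe lies at chr7:26251960-26252019 of hg19, plus strand.

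SUV39H1, which sets H3K9 trimethylation at heterochromatin, was 0.19 and 0.15 in siCONT, 0.19 and 0.14 in siCONT + TSA, -0.16 and -0.17 in siUHRF1, and -0.11 and -0.43 in siUHRF1 + TSA. As for SUZ12, the 4 UHRF1-depleted arrays lay below the 4 control arrays, and mock and TSA arrays with siCONT overlapped. Its log2 fold change was -0.33 with UHRF1 depletion alone (95% interval -0.63 to -0.03, adjusted p = 0.495, limma) and -0.43 with UHRF1 depletion under TSA (95% interval -0.73 to -0.13, adjusted p = 0.143, limma), neither of which passed the threshold. With both treatments against siCONT it fell by 0.44 (standard error 0.12, adjusted p = 0.0495, limma), a call close to the threshold that was lost under 12 of 19 alternative settings. A second SUV39H1 probe gave -0.40 there (adjusted p = 0.205, limma). The main probe lies at chrX:48566887-48566946 of hg19, plus strand.

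The other H3K9 methyltransferases and TRIM28, the corepressor that brings SETDB1 to KRAB zinc finger targets, were not called in any siRNA comparison. Of all gene names, 10.9% were called with TSA alone and 24.2% with both treatments. With both treatments SUV39H2 gave -0.10, SETDB1 0.14, EHMT1 0.12, EHMT2 0.26 and TRIM28 0.38 on the log2 scale. For TRIM28 the 95% interval was 0.04 to 0.71 (adjusted p = 0.0974, limma). SMARCA4, the ATPase of SWI/SNF complexes, which opposes Polycomb silencing, was 5.70 and 5.67 in siCONT, 5.60 and 5.75 in siUHRF1, 6.18 and 6.22 in siCONT + TSA, and 6.11 and 6.19 in siUHRF1 + TSA. Its rise was 0.52 with TSA alone (standard error 0.10, adjusted p = 0.0273, limma) and 0.47 with both treatments (adjusted p = 0.0193, limma). All TSA arrays lay above all mock arrays.

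Among the MBD family and ZBTB33, MBD3, a subunit of the NuRD deacetylase complex that, unlike MBD1 and MBD2, does not itself select methylated DNA, was 2.26 and 2.27 in siCONT, 2.35 and 2.66 in siUHRF1, 3.01 and 2.93 in siCONT + TSA, and 3.31 and 3.39 in siUHRF1 + TSA. The groups did not overlap in this order. Its log2 fold change was 0.70 with TSA alone (standard error 0.12, adjusted p = 0.024, limma) and 1.09 with both treatments (2.13-fold, standard error 0.12, adjusted p = 0.00318, limma), and UHRF1 depletion under TSA gave 0.39 (95% interval 0.08 to 0.69, adjusted p = 0.187, limma). MBD1, a methyl-CpG-binding repressor, was 1.16 and 1.06 in siCONT, 1.42 and 1.37 in siUHRF1, 1.38 and 1.42 in siCONT + TSA, and 1.72 and 1.61 in siUHRF1 + TSA. It was called with both treatments (log2 fold change 0.56, standard error 0.09, adjusted p = 0.0104, limma), but 3 other MBD1 probes gave -0.25, 0.25 and 0.081 in that comparison and none was called, so the probes of this gene disagree. MBD2, MBD4, a thymine glycosylase, and ZBTB33, which encodes the methyl-DNA-binding repressor Kaiso, gave values of -0.20, -0.28 and -0.14 with both treatments and were not called.

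Of all gene names, 24.2% were called with both treatments. Of the 6 demethylase genes only KDM1A, which removes methyl groups from histone H3 lysine 4, was called in a siRNA comparison. It was 0.11 and -0.04 in siCONT, 0.39 and 0.02 in siUHRF1, 0.40 and 0.38 in siCONT + TSA, and 0.79 and 0.64 in siUHRF1 + TSA. The arrays with both treatments lay above all others, and the rise over siCONT was 0.67 (1.60-fold, standard error 0.15, adjusted p = 0.0222, limma). KDM6A and KDM6B, which demethylate H3K27 and so oppose EZH2, gave -0.37 (95% interval -0.66 to -0.07, adjusted p = 0.0802, limma) and -0.16 (95% interval -0.40 to 0.08). KDM2B, KDM4A and KDM5B gave 0.092, -0.27 and 0.24 in the same comparison.

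Several of the called genes have a close paralog among the 38, so the log2 ratio of 6 such pairs was tested in the same limma fit. The pairs were chosen after the values had been seen, so their counts and p-values below describe these pairs and are no independent support. Each gene was read from its brightest probe, and no setting exchanged probes. With TSA alone a second PHF19 probe gave 0.35 in place of 1.04, and a second CBX5 probe 0.11 in place of -0.24. Other CBX1 probes gave 0.30 and 0.33 in place of 0.37. A shift of all values on an array leaves such a ratio as it is. With UHRF1 depletion alone no ratio was called. With TSA alone 4 of 6 were called, and with both treatments 4 of 6. PHF19 over MTF2 changed by 1.02 with TSA alone (95% interval 0.65 to 1.39, adjusted p = 0.0165, limma), CBX3 over CBX5 by 1.05 (95% interval 0.66 to 1.44, adjusted p = 0.0179, limma) and MBD3 over MBD2 by 0.68 (95% interval 0.35 to 1.01, adjusted p = 0.0328, limma). With both treatments the corresponding values were 0.76, 1.09 and 1.28 (adjusted p = 0.0168, 0.00683 and 0.00256, limma), and EZH2 over EZH1 changed by -0.68 (95% interval -1.13 to -0.23, adjusted p = 0.0439, limma). CBX3 over CBX1 was called with TSA alone (0.43, adjusted p = 0.0444, limma) but not with both treatments (0.31, adjusted p = 0.0693, limma), and SUV39H1 over SUV39H2 in neither (0.15 and -0.34, adjusted p = 0.452 and 0.0931, limma). Over 14 alternative settings the change of EZH2 over EZH1 with both treatments lay between -0.96 and -0.41, with an adjusted p of 0.0132 to 0.188 (limma), and it was called under 4 of them. In the same comparison PHF19 over MTF2 was called under 11, CBX3 over CBX5 under 13 and MBD3 over MBD2 under 14 of 14. With TSA alone CBX3 over CBX1 was called under 4, MBD3 over MBD2 under 8, and PHF19 over MTF2 and CBX3 over CBX5 under 9 each.

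To see what the genes share in sequence, promoters from RefSeq (GRCh38.p14; 250 bases before and 50 after each start) were searched for TTTNNCGC, a loose form of the site that E2F transcription factors bind, on both strands. Promoters were found for 35 of the 38 genes, and 10 of these 35 (28.6%) held a match in at least 1 promoter, against 8.23% of 27305 genes with a promoter in the table. Counted by promoter, it was 10 of 50 (20%) against 6.89% of 35116. The promoters of the 38 genes held a median of 31.5 CpG sites, against 14 over all promoters. TTTNNCGC itself holds a CpG, and the sets were not matched for CpG content. The shares above therefore do not show an excess of E2F sites in these genes. Matches occurred in genes that fell with both treatments (HELLS and EZH2) and in genes that rose (PHF19 and CBX3), so the letters are given for these 4, from 160 bases before to 10 after the start, 5′ to 3′ on the strand of the gene, with matches on either strand in capitals. HELLS is at chr10:94545628-94545797 on the plus strand, EZH2 at chr7:148884282-148884451 on the minus strand, PHF19 at chr9:120877179-120877348 on the minus strand and CBX3 at chr7:26201283-26201452 on the plus strand.
HELLS: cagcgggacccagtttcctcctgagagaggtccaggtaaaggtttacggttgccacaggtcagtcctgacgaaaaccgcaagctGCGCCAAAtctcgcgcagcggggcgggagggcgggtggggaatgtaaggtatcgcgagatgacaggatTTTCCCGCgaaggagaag
EZH2: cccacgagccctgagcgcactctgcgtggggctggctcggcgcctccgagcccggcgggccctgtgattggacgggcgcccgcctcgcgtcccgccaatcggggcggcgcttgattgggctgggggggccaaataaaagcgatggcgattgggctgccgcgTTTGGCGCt
PHF19: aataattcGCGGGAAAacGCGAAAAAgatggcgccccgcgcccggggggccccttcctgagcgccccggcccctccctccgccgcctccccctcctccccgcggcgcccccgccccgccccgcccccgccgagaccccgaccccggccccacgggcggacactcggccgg
CBX3: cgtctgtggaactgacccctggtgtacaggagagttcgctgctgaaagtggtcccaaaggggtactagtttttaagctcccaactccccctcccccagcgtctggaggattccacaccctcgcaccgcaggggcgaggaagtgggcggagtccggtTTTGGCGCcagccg
HELLS and PHF19 each hold 2 matches, in HELLS at positions -76 to -69 and -8 to -1 before the start. In EZH2 the match lies just after the start, at 2 to 9, and in CBX3 it spans it. The other matches were in MTF2, SETDB1, CBX5, SUZ12, EZH1 and RBBP7. SUV39H1, with 2 promoters in the table, held none. A match of letters does not show that a factor binds there.

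The siRNAs against UHRF1 could be compared only as 1 array each, with and without TSA. Between siUHRF1-1 and siUHRF1-2 the median absolute difference over the 38 genes was 0.23 on the log2 scale without TSA and 0.18 with TSA, compared with 0.048 and 0.039 between the 2 control arrays. The spread between the siRNAs was thus several times that between control arrays, and it enters every standard error above. For 34 of the 38 genes the difference had the same sign with and without TSA, against 68.8% of all gene names tested (r = 0.70 and rho = 0.70 across the 38 genes, which are not independent replicates; slide column goes with the siRNA). RNF2 was lower with siUHRF1-1 than with siUHRF1-2, with differences of -0.55 without TSA and -0.46 with TSA, and CBX5 likewise, with -0.50 and -0.62. MTF2 (-0.46 and -0.46) and CBX2 (-0.45 and -0.49) differed in the same direction. SUZ12 was higher with siUHRF1-1, by 0.43 without TSA and 0.36 with TSA. HELLS and EZH2 were lower with siUHRF1-1 under TSA, with differences of -0.43 and -0.39.

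**Figure D4:**
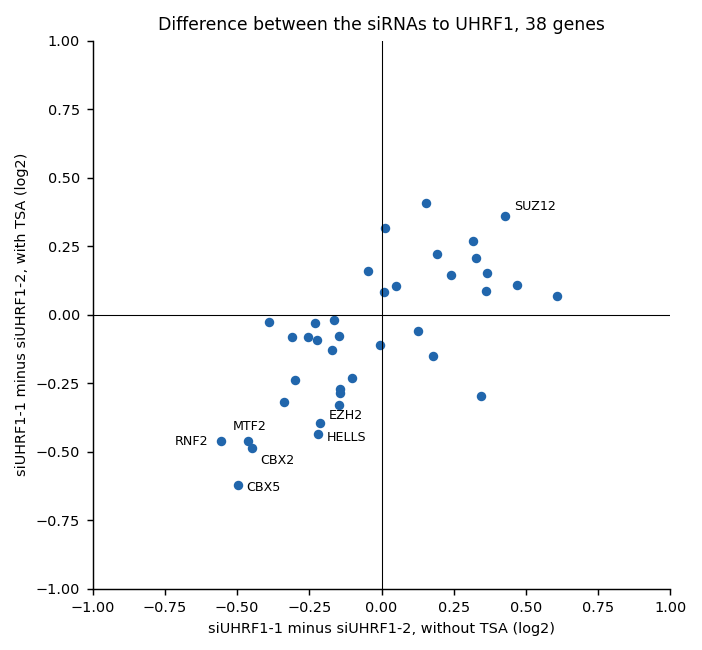
Log2 signal with siUHRF1-1 minus that with siUHRF1-2 for each of the 38 genes, without TSA (horizontal axis) and with TSA (vertical axis); each point is 1 gene and each difference rests on 1 array per siRNA. Of the 38 points 34 lie in the lower left or upper right quadrant, with RNF2, CBX5, MTF2 and CBX2 at the lower left and SUZ12 at the upper right.

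A wider list of 91 other genes of the same machinery was examined to place these results. Of these, 85 passed the filter, and 0 were called with UHRF1 depletion alone (4 at an unadjusted p below 0.05, limma). TSA alone raised 8 and lowered 5 (15.3% of the 85, against 10.9% of all gene names), and both treatments raised 11 and lowered 7 (21.2%, against 24.2%). These shares are near the background, so the genes named next are descriptions of single genes, not of the list. ASXL1, a cofactor of an H2A deubiquitinase, rose by 0.92 with TSA alone and 0.93 with both treatments (adjusted p = 0.0209 and 0.00956, limma). KMT5B, an H4K20 methyltransferase, and SMARCB1, a core SWI/SNF subunit, also rose with both treatments, by 0.85 and 0.87. The lysine demethylases KDM7A and KDM3A fell by 1.08 and 0.95 with both treatments (adjusted p = 0.00394 and 0.0153, limma), and the H3K36 methyltransferase NSD2 fell by 0.83 (adjusted p = 0.00272, limma). ARID1A, another SWI/SNF subunit, fell by 0.69 with TSA alone (adjusted p = 0.0286, limma). With 5-aza-dC the largest rises of this list were those of SCML2, SETD1B and EPOP, and the largest falls those of SETDB2, SCMH1 and YAF2, with log2 fold changes of -1.96, -1.67 and -1.47. SCML2, a PRC1 subunit, was not well above background in siCONT and was at least 8.03-fold higher on the 5-aza-dC array, set against the lowest signal above background in siCONT (measured means -1.32 and -6.23). It passed the filter through the 5-aza-dC array alone, so no p is given. SETD1B, an H3K4 methyltransferase, and EPOP, a PRC2 accessory protein, gave 1.45 and 1.29 (adjusted p = 0.0343 and 0.000537, limma). With 5-aza-dC 50.6% of the 87 genes of the list that passed the filter there were called, against 49.1% of all gene names. Both shares include genes, SCML2 among them, that passed only through the 5-aza-dC array, so they are descriptions and not a test. Scaled on the spike-in control probes, SETD1B and EPOP turned to -0.24 and -0.40, and the bound for SCML2 fell to 2.48-fold.

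The array of 5-aza-dC was set against siCONT, with its single array assumed to vary like the other groups. Slide, scan, transfection and drug cannot be told apart in this comparison, in which 49.1% of 20265 gene names were called (25.2% higher and 23.9% lower). Those names include some that passed the filter only through the 5-aza-dC array, as 17719 passed on the siRNA arrays. All 38 genes passed on the siRNA arrays, so the sets are not alike in this. Of the 38 genes, 10 were called higher and 7 lower, and 11 were called in all when replicate 1 of siCONT was left out. MBD1, CBX3, CBX8 and BMI1 had the largest positive values, 1.99, 1.47, 1.13 and 1.01 on the log2 scale (adjusted p = 8.78e-05, 0.00109, 0.00212 and 0.00729, limma), and EZH1, SUV39H1 and CBX7 the most negative, -1.91, -1.63 and -1.36 (adjusted p = 0.000125, 0.000552 and 0.000994, limma). The other genes called higher were EED, RBBP4, RBBP7, SUV39H2, KDM6A and KDM6B, and the other genes called lower were RING1, SETDB1, SMARCA4 and KDM4A. Of the 41 S phase genes 11 were higher and 2 lower on this array. HELLS, at 0.62 on the 5-aza-dC array, was close to siCONT (log2 fold change -0.054, 95% interval -0.55 to 0.44), and EZH2, at 3.05, gave -0.32 (95% interval -0.79 to 0.14). SUV39H1 was at -1.46 on that array, and the HP1 genes CBX1, CBX3 and CBX5 were at 4.16, 6.07 and 0.45. EZH1, CBX7, CBX8 and BMI1 were at -0.31, 1.41, 0.33 and 1.92, against siCONT values of 1.64 and 1.56, 2.75 and 2.79, -0.76 and -0.85, and 0.90 and 0.91.

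These directions depend on how the 5-aza-dC array was scaled. Scaled on the spike-in control probes, all values shifted by -1.69 on the log2 scale, and 0 of the 38 genes were then called higher and 35 lower, with MBD1 alone above 0 (0.30). The median over all gene names was -1.64 under that scaling, and that over the 38 genes was -1.46. Relative to one another the genes keep their differences under such a shift. Quantile normalization gave 8 higher and 9 lower, and normexp background correction 11 and 4. Further probes were also less uniform here: 3 other MBD1 probes gave 0.33 to 0.43 in place of 1.99, and a second CBX7 probe gave 0.31 in place of -1.36 (none called, limma). Both other SETDB1 probes, at 0.13 and 0.40, lay above 0 in place of -0.68 and were not called, and of 3 other RBBP4 probes 1 gave -0.33 (not called) and the others 1.03 and 1.16 (called higher). By contrast a second SUV39H1 probe gave -1.09 (adjusted p = 0.0161, limma).

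**Figure D5:**
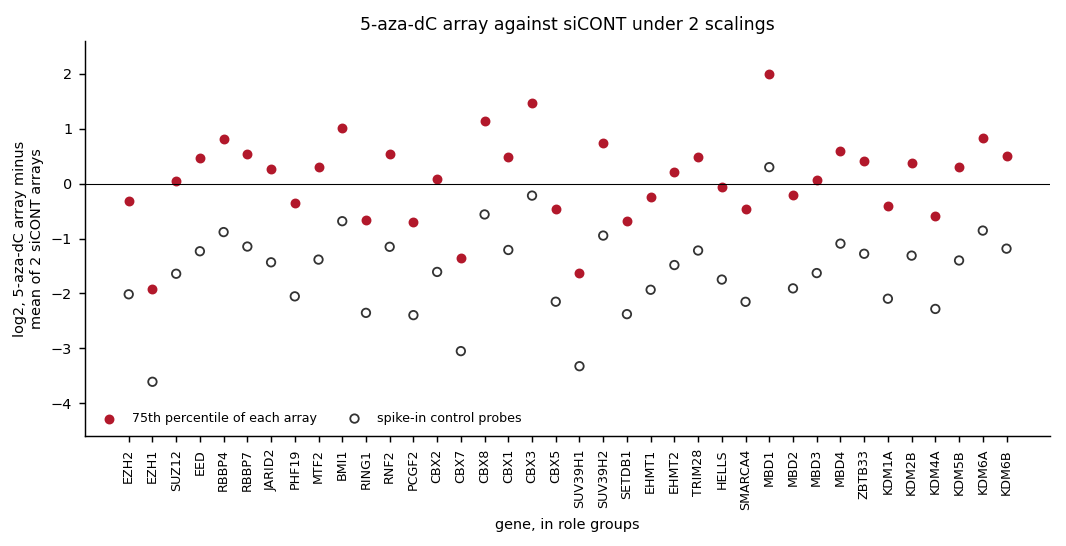
Log2 signal on the 5-aza-dC array minus the mean of the siCONT arrays for the 38 genes, in role groups. Filled points are scaled on the 75th percentile of each array and open points on the spike-in control probes, which lowers every gene by 1.69 and leaves MBD1 alone above 0.

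The calls with TSA rest on few arrays. When either array of siCONT or of siCONT + TSA was left out, 0 of the 38 genes were called with TSA alone, and without either siCONT array only HELLS and MBD3 were called with both treatments. Leaving out either mock siUHRF1 array, which enters that comparison through the shared estimate of spread alone, raised the count to 16. Of the 6 genes called for TSA in UHRF1-depleted cells, 3 were called without either siCONT array or without replicate 2 of siCONT + TSA. Scaling on the spike-in probes lowered every value with TSA by 0.18 and with both treatments by 0.16, and left 1 gene higher and 1 lower with TSA alone, and 3 higher and 2 lower with both treatments. With TSA in UHRF1-depleted cells it left 2 higher and 2 lower. Quantile normalization gave 6 higher and 6 lower with both treatments, and normexp background correction left 1 gene called with TSA alone. None of the called values in the TSA comparisons changed sign under any of these settings. The share of all gene names called under each setting was not counted, so these counts are not particular to the 38 genes.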

How the data were processed

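RNA of RKO cells was hybridised to Agilent 1-colour arrays, and the deposited values were spot intensity values made by the authors with Feature Extraction 10.7.3.1 per the file headers (10.7 in the submitters' processing notes). The processed signal, already background-corrected by that software, was taken as log2 minus the 75th percentile of each array. Control spots were left out, spots of a probe were averaged, and each gene was read from its brightest probe. Probes well above background on every array of at least 1 group were tested (23695 on the 8 siRNA arrays, 27140 with 5-aza-dC) with limma 3.58.1 in R 4.3.3, with groups from the labels and no covariate, and p-values were adjusted over all of them. The script was tested on simulated data. The S phase list came from Seurat 5.3.0. Array number limits the precision. Values on every array are given for EZH2, SUV39H1, HELLS, the HP1 genes and the 8 called genes of largest change per TSA comparison against siCONT or siUHRF1, and of the wider list for the 3 genes of largest rise and fall. The members and lists were chosen with earlier results of these data known, and the paralog pairs after their values were seen. Alternatives covered background correction, scaling, filters, blocks, tests, thresholds and each array left out.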

Additional observations from a re-analysis of the deposited data

How the results depend on the processing

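Of the called values of named genes, none changed sign under any alternative in the TSA comparisons, where 68 of 100 values with TSA alone, 134 of 171 with both treatments and 88 of 120 for TSA in UHRF1-depleted cells stayed past the threshold. With 5-aza-dC 274 of 306 did, 23 did not, and 9 changed sign. Those 9 all arose from scaling on the spike-in probes, which gave EED -1.23, RBBP4 -0.88, RBBP7 -1.15, BMI1 -0.68, CBX8 -0.56, CBX3 -0.22, SUV39H2 -0.95, KDM6A -0.86 and KDM6B -1.18 and moved the S phase median to -1.43, since that scaling lowers every value on the 5-aza-dC array. Counts of the 38 genes called moved as follows, and the cause was not tested. The share of all gene names called was not counted under the alternatives, so the counts describe the settings and not the 38 genes. For unadjusted limma p-values below 0.05 it was 5257 of 17719 with TSA alone and 6912 with both treatments. For TSA in UHRF1-depleted cells it was 5924. With TSA alone (5 as reported), normexp gave 1, spike-in scaling 2, no filter 1, a block that ties each control replicate or siRNA to its TSA array 8, a fit of only the compared arrays 15, the methods' t-test 21 unadjusted and 9 after Benjamini-Hochberg, Tukey's test 0 after adjustment, unadjusted limma p-values 9, and a further 2-fold threshold 1. With both treatments (9 as reported), spike-in scaling gave 5, the methods' t-test 0 and Tukey's test 2 after adjustment, unadjusted limma p-values 17, and the 2-fold threshold 2. For TSA in UHRF1-depleted cells (6 as reported), normexp gave 3, no filter 3, only the compared arrays 0, the methods' t-test 0 and Tukey's test 0 after adjustment, unadjusted limma p-values 12, and the 2-fold threshold 1. For UHRF1 depletion alone (0 as reported), the unadjusted methods' t-test gave 2, Tukey's test 1 and limma 2, and for UHRF1 depletion under TSA (0 as reported) they gave 3, 1 and 7. With 5-aza-dC (17 as reported), spike-in scaling gave 35, only the compared arrays 27, and the 2-fold threshold 7. Leaving out 1 array at a time, the counts ranged from 0 to 5 with TSA alone, from 2 to 16 with both treatments, from 3 to 7 for TSA in UHRF1-depleted cells and from 11 to 22 with 5-aza-dC. Where 1 array was left in a group, its spread was taken from the other groups.

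With the replicate block the counts were 0 for UHRF1 depletion alone, 5 with TSA alone, 9 with both treatments, 0 for UHRF1 depletion under TSA and 7 for TSA in UHRF1-depleted cells. Deviations of same-numbered arrays correlated at -0.047 to 0.08 between groups, except at 0.47 between siUHRF1 and siUHRF1 + TSA, whose equal numbers share an siRNA. The numbers were thus not taken to pair arrays across all groups. The main fit did not pair the UHRF1-depleted arrays by siRNA either. In TSA against mock among depleted cells, and in the difference between effects, the siRNA difference therefore stayed in the spread. A block for slide and scan was not run, since all siRNA arrays shared 1 slide and 1 scan.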
